A study of Mus musculus with 6 samples.

Results

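DNA replication and mitosis genes were followed as 48 members, 25 that act in DNA replication and 23 that act in mitosis. The RNA was ribosome-bound and enriched for pericytes of mouse lung. Members were taken by gene symbol, and all 48 were found among the 21603 genes of each sample. All 48 also passed the filter on low values, which kept 12034 genes. RNA came from lungs at postnatal day (P) 8, from 3 control and 3 Yap1,Wwtr1 iPCKO samples. In both groups, a Cre-dependent HA tag on the ribosomal protein RPL22 (RiboTag) was switched on by tamoxifen through the Pdgfrb(BAC)-CreERT2 transgene. Anti-HA immunoprecipitation was used to enrich RNA on ribosomes of recombined cells, and RNA of other cells was also present, as given below. Controls carried the Cre transgene and a single floxed copy of Yap1 and of Wwtr1, labelled Yap1+/-;Wwtr1+/-. In iPCKO samples both copies of each gene were floxed, labelled Yap1-/-;Wwtr1-/-. YAP1 and TAZ, the products of Yap1 and Wwtr1, are transcriptional coregulators restrained by the Hippo pathway. The transgene follows Pdgfrb, which other mural and some mesenchymal cells also use, and sexes were pooled. The labels do not tie samples to litters, so p-values measure only the spread between these samples.

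A dividing cell passes through G1, S, G2 and M phases. Before S phase, origin licensing places the MCM helicase on DNA, and in S phase polymerases copy the opened strands with the sliding clamp PCNA and a supply of deoxynucleotides. Transcription of many of these genes is switched on around the G1/S boundary by E2F factors released from RB proteins. Genes of mitosis, such as cyclin B and the spindle motors, are transcribed later, in G2, through a promoter element called the cell cycle gene homology region (CHR) and neighbouring CCAAT boxes, bound by MuvB complexes with B-MYB and FOXM1 and by NF-Y. The replication genes and mitosis genes therefore read different stretches of the same cycle.

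Levels are the authors' RPKM, reads per kilobase of exon, scaled to the depth of each library. Each log2 fold change is the iPCKO mean of log2(RPKM + 0.1) less the control mean, a scale that understates the change of low genes. A gene was called when limma gave an adjusted p below 0.01 over all 12034 genes with an absolute log2 fold change above 0.5. Depth, read from the steps that single reads leave in low RPKM values, ranged from 17.4 to 34.6 M reads in controls and from 14.2 to 39.6 M in iPCKO samples. Yap1 RPKM was 13.2, 11.5 and 12.3 in controls and 5.76, 5.83 and 5.25 in iPCKO samples, a fall of 1.12 ± 0.09 (SE) on the log2 scale with an adjusted p of 0.00017. Wwtr1 RPKM was 71.2, 53.8 and 56.1 in controls and 63.5, 60.3 and 62.2 in iPCKO samples, with overlapping groups. A gene-wide RPKM does not show which exons were read, so the Wwtr1 value does not check the deletion. All 10 pericyte markers passed the filter, and Pdgfrb RPKM was 1369 to 1666 in controls and 1193 to 1447 in iPCKO samples. Of these 10 markers, 3 were called higher and 2 lower in iPCKO samples, against 4.11% and 2.68% of all tested genes. On the log2 scale, Cspg4, Kcnj8 and Abcc9 were higher by 1.06, 1.03 and 1.15, and Notch3 and Rgs5 were lower at -0.94 and -1.15. Transcripts of the Y chromosome were present in controls 1 and 3 and at or near 0 in control 2 and in all iPCKO samples (Ddx3y 17.2 and 19.8 RPKM against 0), so that carriage of a Y chromosome was unevenly spread over the groups.

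Fold changes of replication genes were nearly all positive in Yap1,Wwtr1 iPCKO samples, with few genes called, and those of mitosis genes went both ways. Over the 25 replication members, the median log2 fold change was 0.6, and 24 of 25 were positive. In bulk samples, more cells in S phase, more of these RNAs per cell and more RNA from other cells cannot be told apart. Rfc3, a subunit of the clamp loader, was the exception at -0.09 ± 0.12 (SE). Over the 23 mitosis members, the median was -0.04 and 9 were positive, with a range from -0.56 for Cenpf to 0.57 for Mybl2. The median of all tested genes was 0. Of the 48 members 3 were called higher, all of them replication genes (Cdt1, Mcm2 and Fen1), against a background of 4.11% of all tested genes called higher. None was called lower, against 2.68% of all tested genes. With an adjusted p below 0.05 in place of 0.01, 15 of 25 replication members and 0 of 23 mitosis members were called higher, against 6.66% of all tested genes. At an unadjusted p below 0.05, limma passed 21 replication members and 1 mitosis member, Mybl2, all higher, and 0 members lower, against 16.1% of all tested genes higher and 13.6% lower. Every iPCKO sample lay above every control sample for 17 of 25 replication members and 1 of 23 mitosis members, again Mybl2, against 18.3% of all tested genes. The opposite order held for 0 of 48 members, against 17.1% of all tested genes.

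**Figure D1:**
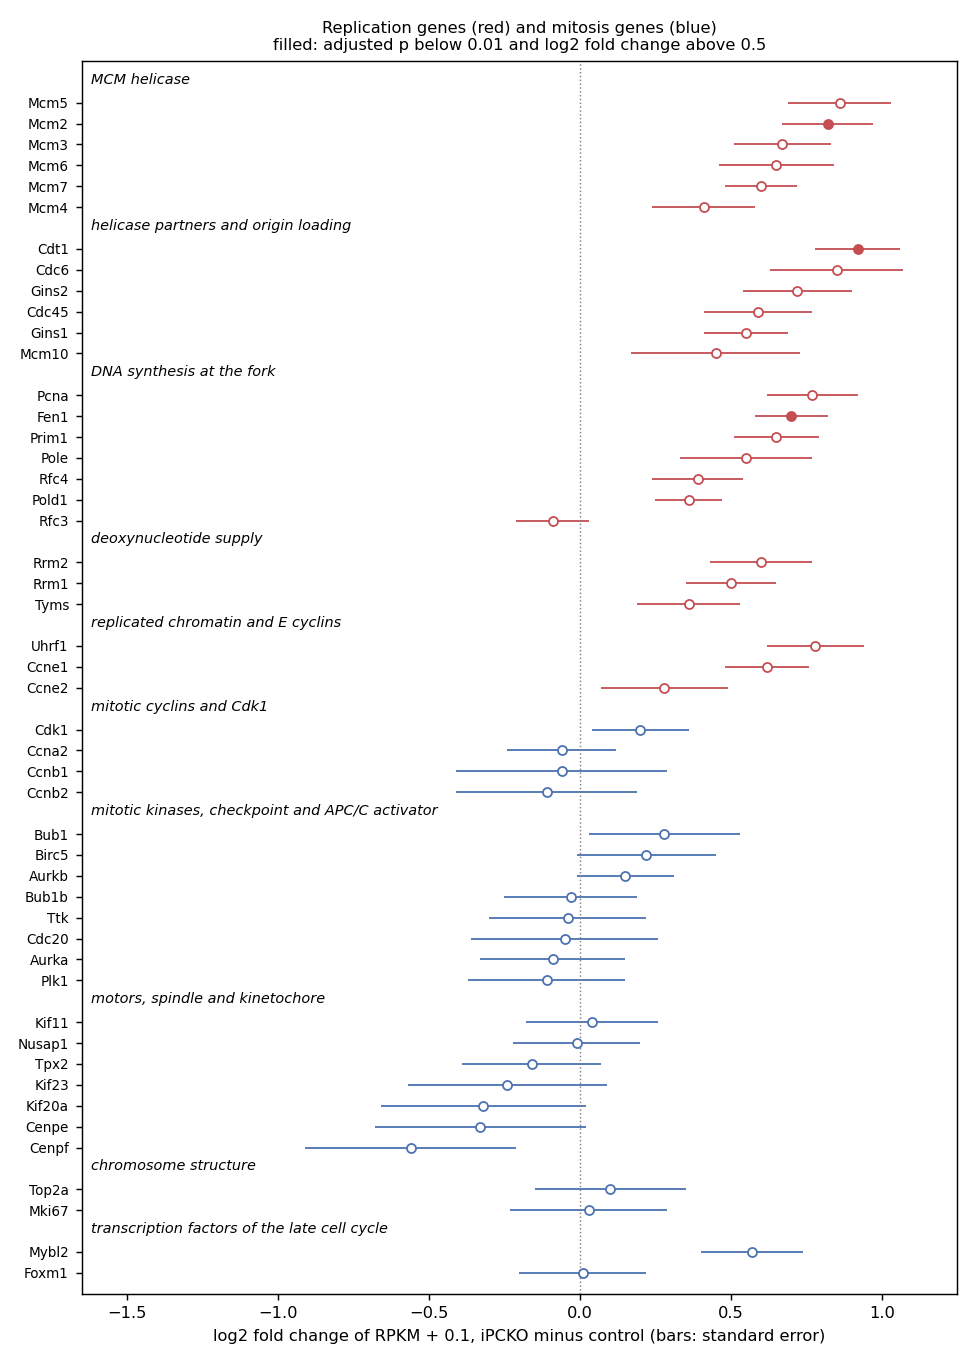
Log2 fold change of RPKM + 0.1 (x axis, iPCKO minus control, n = 3 samples a group) of the 48 members, in rows ordered by role, with bars for the standard error, replication genes in red and mitosis genes in blue. All red points but Rfc3 lie right of 0, while the blue points lie on both sides, and the filled points mark Cdt1, Mcm2 and Fen1, the members called.

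The calls depended on single samples, whereas the direction of the replication genes did not. None of the 3 members was called without control 1, without control 3 or without iPCKO 3. Cdt1 alone was called without iPCKO 1 or without iPCKO 2. Without control 2, Cdt1, Mcm2 and Mcm5 were called. Fen1 was called in 0 of the 6 fits with a sample left out. None was called once trends on GC content and length were removed, where adjusted p-values were 0.011 for Mcm2, 0.01 for Cdt1 and 0.018 for Fen1. The median over the replication members stayed between 0.5 and 0.72 in the 6 leave-one-out fits, with 24 or 25 of 25 members positive. With Y-linked transcripts as a covariate, 0 members were called and the median was 0.39, with 23 of 25 positive. Control 2 was the only control without Y-linked transcripts, so this fit rested mainly on control 2 against the iPCKO samples. The comparison of control 2 alone with the iPCKO samples is therefore nearly the same contrast and not a separate check. In it, the median difference of the replication members was 0.39 and 23 of 25 were positive. The mitosis members stood at -0.28 with 4 of 23 positive in that comparison, and 4 of 23 were positive with the covariate.

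The promoters of the most abundant members differ in sequence between replication and mitosis genes, and are printed here for the 4 replication and the 4 mitosis members of highest mean RPKM whose promoter was in the RefSeq table of assembly GRCm38.p6. Each runs 5′ to 3′ on the strand of its gene from 250 bases before the RefSeq start to 50 bases after it. Capitals mark matches, on either strand, to E2F letters (TTTGGCG or TTTCCCG or TTTCGCG) and to CHR letters (TTTGAA or TTCGAA). Windows of the replication genes lie at chr2:132253131-132253430 (minus strand) for Pcna, chr1:128359656-128359955 (minus strand) for Mcm6, chr7:102441445-102441744 (plus strand) for Rrm1 and chr1:20820263-20820562 (minus strand) for Mcm3.
Pcna: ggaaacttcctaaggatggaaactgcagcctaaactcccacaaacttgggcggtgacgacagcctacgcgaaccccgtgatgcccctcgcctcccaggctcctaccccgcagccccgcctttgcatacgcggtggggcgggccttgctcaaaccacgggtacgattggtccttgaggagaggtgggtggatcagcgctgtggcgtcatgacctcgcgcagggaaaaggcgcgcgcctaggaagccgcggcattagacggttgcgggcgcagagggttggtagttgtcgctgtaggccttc
Mcm6: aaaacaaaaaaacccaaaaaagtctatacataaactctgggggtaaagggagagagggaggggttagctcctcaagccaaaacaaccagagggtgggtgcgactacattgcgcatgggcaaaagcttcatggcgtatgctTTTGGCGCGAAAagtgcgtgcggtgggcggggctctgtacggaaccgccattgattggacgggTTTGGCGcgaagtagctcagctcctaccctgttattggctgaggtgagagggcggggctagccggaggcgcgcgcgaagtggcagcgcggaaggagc
Rrm1: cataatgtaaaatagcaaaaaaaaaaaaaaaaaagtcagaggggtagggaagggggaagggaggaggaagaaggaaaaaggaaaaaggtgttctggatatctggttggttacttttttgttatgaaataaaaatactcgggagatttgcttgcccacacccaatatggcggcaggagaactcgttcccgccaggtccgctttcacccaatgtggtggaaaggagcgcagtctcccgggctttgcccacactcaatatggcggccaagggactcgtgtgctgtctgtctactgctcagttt
Mcm3: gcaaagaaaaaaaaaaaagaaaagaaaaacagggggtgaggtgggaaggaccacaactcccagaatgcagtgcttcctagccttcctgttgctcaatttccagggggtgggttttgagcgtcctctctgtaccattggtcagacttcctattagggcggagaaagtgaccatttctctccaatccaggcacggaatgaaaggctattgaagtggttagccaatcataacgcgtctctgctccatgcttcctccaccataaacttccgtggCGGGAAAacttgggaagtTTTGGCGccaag
Windows of the mitosis genes lie at chr7:135716330-135716629 (minus strand) for Mki67, chr9:70421505-70421804 (minus strand) for Ccnb2, chr11:99024140-99024439 (minus strand) for Top2a and chr10:69352863-69353162 (minus strand) for Cdk1.
Mki67: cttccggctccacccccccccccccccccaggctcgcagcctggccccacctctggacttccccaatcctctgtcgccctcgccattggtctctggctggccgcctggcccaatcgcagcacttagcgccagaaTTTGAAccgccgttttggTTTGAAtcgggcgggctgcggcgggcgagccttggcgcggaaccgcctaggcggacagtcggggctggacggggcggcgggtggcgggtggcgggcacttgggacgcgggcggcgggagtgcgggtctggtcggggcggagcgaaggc
Ccnb2: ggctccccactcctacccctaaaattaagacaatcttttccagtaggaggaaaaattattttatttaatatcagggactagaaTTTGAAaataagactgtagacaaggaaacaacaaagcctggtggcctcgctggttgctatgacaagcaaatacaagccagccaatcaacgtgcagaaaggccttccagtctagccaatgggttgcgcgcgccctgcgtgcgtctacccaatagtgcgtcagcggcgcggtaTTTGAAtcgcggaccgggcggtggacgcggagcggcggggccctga
Top2a: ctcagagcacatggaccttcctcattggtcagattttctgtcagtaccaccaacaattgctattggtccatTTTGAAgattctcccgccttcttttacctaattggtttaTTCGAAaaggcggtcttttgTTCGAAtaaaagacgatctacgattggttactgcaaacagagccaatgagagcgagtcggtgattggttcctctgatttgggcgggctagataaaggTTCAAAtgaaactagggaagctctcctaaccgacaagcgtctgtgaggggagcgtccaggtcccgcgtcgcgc
Cdk1: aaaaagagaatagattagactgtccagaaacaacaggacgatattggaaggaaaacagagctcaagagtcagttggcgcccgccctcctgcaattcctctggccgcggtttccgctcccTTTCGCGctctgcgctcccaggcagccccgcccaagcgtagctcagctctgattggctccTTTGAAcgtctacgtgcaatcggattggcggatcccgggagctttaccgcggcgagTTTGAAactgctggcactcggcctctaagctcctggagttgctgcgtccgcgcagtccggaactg
Mcm6 held 3 matches to the E2F letters, a pair of them overlapping on opposite strands, and Mcm3 held 2, both within the last 30 bases of its window. Pcna and Rrm1 held no match, which says only that these letters are not in these windows. All 4 mitosis promoters held CHR letters, with 4 matches in Top2a and 2 each in Mki67, Ccnb2 and Cdk1. Cdk1 also held 1 match to the E2F letters.

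Of the 48 members, 38 had a promoter in the table, 20 replication and 18 mitosis genes, with 23 and 18 windows. E2F letters were found in 11 of 23 windows of replication genes (47.8%) and in 3 of 18 windows of mitosis genes (16.7%), against 5.58% of all 32851 windows and 9.48% of those of tested genes. CHR letters were found in 5 of 23 (21.7%) and 13 of 18 (72.2%), against 19.2% of all windows and 13.7% of those of tested genes. The 13 mitosis windows with CHR letters all held a CCAAT box on either strand as well, a pairing found in 7.52% of all windows. Further genes of both processes, not among the members, showed the same order, with E2F letters in 37.5% of windows of replication genes and 18.8% of those of mitosis genes, and CHR letters in 14.6% and 67.2%. TEAD factors are the DNA-binding partners of YAP1 and TAZ. Their letters (GGAATG, either strand) were in 2 of 23 replication windows (8.7%) and 1 of 18 mitosis windows (5.56%). The share was 14.7% of all windows, 12.1% of those of tested genes, and 10.4% and 10.9% for further replication and mitosis genes. A match is a description of the reference sequence and not a bound site.

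**Figure D2:**
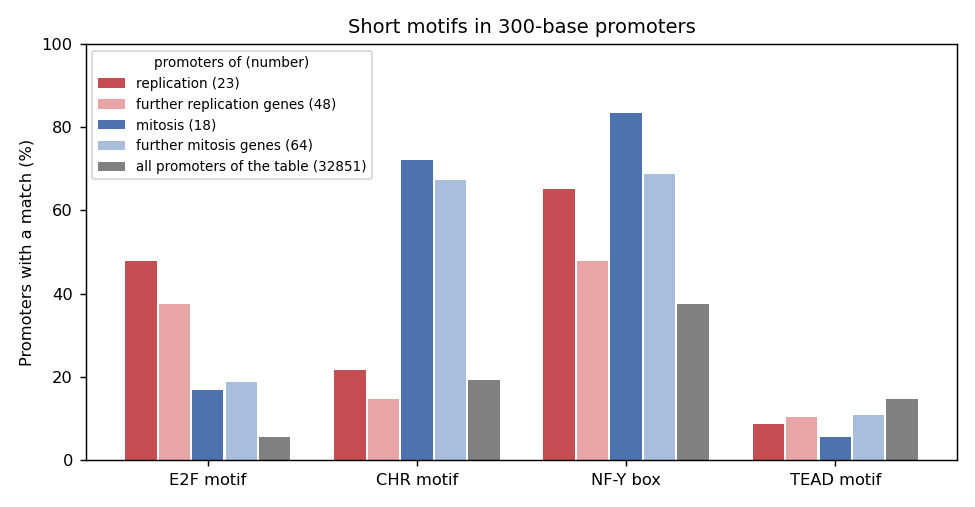
Share of 300-base promoter windows (y axis, %) with a match to the E2F motif, the CHR motif, the NF-Y box (CCAAT) or the TEAD motif, for windows of the replication and mitosis members, of further genes of both processes and of all genes in the table. The E2F bar is highest for the replication members (47.8%) and the CHR bar for the mitosis members (72.2%).

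The MCM helicase is the hexamer that unwinds DNA at the fork. Of its 6 subunits 1 was called higher, against 4.11% of all tested genes. All 6 had positive log2 fold changes, from 0.41 for Mcm4 to 0.86 for Mcm5 (median 0.66). For 5 of 6 every iPCKO sample lay above every control, against 18.3% of all tested genes. The summed RPKM of the 6 subunits was 90.9, 138.1 and 121.7 in controls and 186.7, 158.7 and 206.9 in iPCKO samples. Mcm2 (chromosome 6, 88883474 to 88898780, minus strand, GRCm38) was that subunit. Its RPKM was 12.2, 17.7 and 15.3 in controls and 28.6, 22.2 and 28.5 in iPCKO samples. The lowest iPCKO sample, iPCKO 2, lay above the highest control, control 2. The log2 fold change of Mcm2 was 0.82 ± 0.15 (SE), a 1.76-fold ratio of means, with an adjusted p of 0.0086 in limma that ranged from 0.0079 to 0.035 when a sample was left out. Mcm6, the most abundant subunit, had an RPKM of 24.5, 42 and 34.8 in controls and 50.1, 47.1 and 59.3 in iPCKO samples. Its groups did not overlap, but control 2 came close to iPCKO 2. The log2 fold change of Mcm6 was 0.65 ± 0.19 (SE) with an adjusted p of 0.047. Mcm5 had the largest fold change of the subunits and missed the call at an adjusted p of 0.011, and it was called without control 2 (adjusted p = 0.0095).

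Among the helicase partners and origin loading factors, all 6 members had positive log2 fold changes, from 0.45 for Mcm10 to 0.92 for Cdt1. Every iPCKO sample lay above every control for 4 of them, against 18.3% of all tested genes. CDT1 brings the MCM hexamer to origins together with CDC6 and is destroyed once S phase begins. Cdt1 (chromosome 8, 122568015 to 122573554, plus strand) had an RPKM of 5.75, 7.6 and 6.25 in controls and 13.6, 10.3 and 13.6 in iPCKO samples. All iPCKO samples were above all controls, and the mean was 1.91 times the control mean. This was the largest fold change of the 48 members, at 0.92 ± 0.14 (SE) and an adjusted p of 0.0035 in limma, which ranged from 0.004 to 0.018 when a sample was left out. Cdc6 had a like fold change, 0.85 ± 0.22 (SE), at a lower level of 1.97 ± 0.4 RPKM in controls and 3.66 ± 0.93 RPKM in iPCKO samples (SD, n = 3), and an adjusted p of 0.032. CDC45 and the GINS complex complete the active helicase with MCM. Gins2, Cdc45 and Gins1 had log2 fold changes of 0.72, 0.59 and 0.55.

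Of the 7 members that synthesize DNA at the fork, 6 had positive log2 fold changes. Of these 1 was called higher, against 4.11% of all tested genes. FEN1 is the nuclease that trims flaps from Okazaki fragments. Fen1 (chromosome 19, 10199132 to 10204169, minus strand) had an RPKM of 10.3, 12.6 and 12.5 in controls and 18.9, 17 and 22 in iPCKO samples. The groups did not overlap. The log2 fold change of Fen1 was 0.7 ± 0.12 (SE) with an adjusted p of 0.0063 in limma, which ranged from 0.01 to 0.021 when a sample was left out. PCNA, the sliding clamp, was the most abundant of the 25 replication members. Pcna RPKM was 28.1, 40.1 and 36.4 in controls and 62.8, 49.6 and 64.9 in iPCKO samples. Here too every iPCKO sample lay above every control, and the log2 fold change was 0.77 ± 0.15 (SE), with an adjusted p of 0.012 that missed the call. The primase subunit Prim1 (0.65) and the polymerase subunits Pole (0.55) and Pold1 (0.36) were likewise positive. The clamp loader subunits differed, with 0.39 ± 0.15 (SE) for Rfc4 and -0.09 ± 0.12 (SE) for Rfc3.

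Deoxynucleotide supply was represented by both members that encode subunits of ribonucleotide reductase, Rrm1 and Rrm2, and by Tyms, the thymidylate synthase. Rrm1, the large subunit, had an RPKM of 17.7, 25.3 and 21.3 in controls and 26.4, 28.7 and 35.5 in iPCKO samples. The groups were adjacent but did not overlap, and the log2 fold change was 0.5 ± 0.15 (SE) with an adjusted p of 0.064. Rrm2 and Tyms had log2 fold changes of 0.6 and 0.36. Of the remaining replication members, UHRF1 brings the maintenance DNA methyltransferase to newly copied DNA. Uhrf1 RPKM was 7.87, 11.9 and 10.7 in controls and 18.3, 14.9 and 18.6 in iPCKO samples, without overlap. Its log2 fold change was 0.78 ± 0.16 (SE) with an adjusted p of 0.013. The E cyclins drive entry into S phase with CDK2. Ccne1 had a log2 fold change of 0.62 ± 0.14 (SE) without overlap between groups, and Ccne2 had 0.28 ± 0.21 (SE) with overlap.

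**Figure D3:**
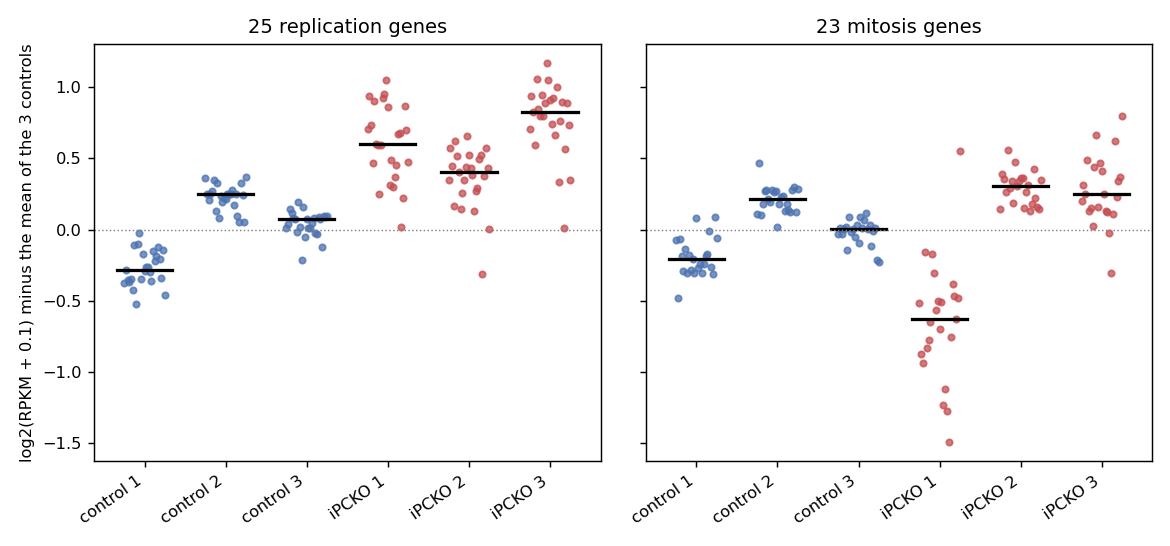
Difference of log2(RPKM + 0.1) from the mean of the 3 controls (y axis) in each of the 6 samples (x axis), with 1 point a gene and a black bar at the median, for the replication members (left) and the mitosis members (right). Replication medians are 0.6, 0.4 and 0.83 in iPCKO 1, 2 and 3, and mitosis medians are -0.63, 0.31 and 0.25.

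The mitosis members split by sample rather than by group. In controls both classes kept step. The mean log2(RPKM + 0.1) was 2.67, 3.17 and 2.98 over the replication members and 3.18, 3.58 and 3.35 over the mitosis members, so that control 1 was lowest and control 2 highest in both classes. In iPCKO samples the mean was 3.55, 3.3 and 3.72 over the replication members and 2.72, 3.66 and 3.64 over the mitosis members. iPCKO 1 thus combined high replication genes with the lowest mitosis level of the 6 samples, whereas iPCKO 2 and 3 were above the highest control in both. iPCKO 1 was the lowest of the 6 samples for 20 of 23 mitosis members (87%), against 14.3% of all tested genes. Replication minus mitosis level was -0.5, -0.41 and -0.37 in controls and 0.82, -0.36 and 0.07 in iPCKO samples, or -0.43 ± 0.07 against 0.18 ± 0.6 (SD, n = 3), a difference of 0.61. iPCKO 2 lay just above the controls on this measure, and iPCKO 1 was the farthest from them.

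Without iPCKO 1, the mitosis members were higher in iPCKO samples as well. Their median log2 fold change became 0.26, with 22 of 23 positive, while the replication members stood at 0.62 with 24 of 25 positive, and the difference between the mean fold changes of the classes fell from 0.61 to 0.29. The contrast between replication and mitosis genes therefore rested in large part on this 1 sample, and the higher replication level did not. Between control 3 and iPCKO 2, which had the greatest depth, the median difference was 0.37 over the replication and 0.27 over the mitosis members. In the other 4 samples, it was 0.71 and -0.19. Erythroid markers were also highest in iPCKO 1, with a summed RPKM over the 9 markers in the files of 5763 against 1581 and 2506 in the other iPCKO samples and 2345, 2837 and 2556 in controls. Their part in the low mitosis level of this sample was not tested.

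Cyclins with Cdk1 drive mitotic entry, and iPCKO 1 was the lowest of the 6 samples for 3 of these 4 members, the exception being Cdk1. Ccna2, a cyclin of S phase and G2, had an RPKM of 29.2, 33.3 and 30.1 in controls and 21.5, 34 and 35.4 in iPCKO samples. iPCKO 1 was the lowest and iPCKO 2 and 3 were above all controls, and the log2 fold change was -0.06 ± 0.18 (SE). Ccnb1, the cyclin B1 gene, had 4.32, 8.46 and 6.12 RPKM in controls and 3.26, 8.01 and 7.59 in iPCKO samples. Its groups overlapped fully, with a log2 fold change of -0.06 ± 0.35 (SE) and a 95% interval from -0.85 to 0.74. Cdk1 RPKM was 14.6, 18.8 and 16.6 in controls and 14.9, 19.9 and 23.2 in iPCKO samples, with a log2 fold change of 0.2 ± 0.16 (SE). Ccnb2 was at -0.11 ± 0.3 (SE), and adjusted p-values of all 4 genes were between 0.47 and 0.94.

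The 8 mitotic kinases, checkpoint proteins and activators of the anaphase-promoting complex had log2 fold changes from -0.11 for Plk1 to 0.28 for Bub1. Cdc20, which activates that complex at anaphase, was the most abundant of them. Its RPKM was 13.4, 19.9 and 16.6 in controls and 9.2, 24.3 and 18 in iPCKO samples, so that iPCKO samples held both the lowest and the highest value. The log2 fold change of Cdc20 was -0.05 ± 0.31 (SE). Among the 7 motors, spindle and kinetochore proteins, iPCKO 1 was lowest for all 7 and the median log2 fold change was -0.24. Tpx2, which activates Aurora A on the spindle, had an RPKM of 13.1, 16.3 and 15.1 in controls and 8.67, 16.7 and 15.9 in iPCKO samples, with a log2 fold change of -0.16 ± 0.23 (SE). Cenpf, a kinetochore protein, was the most negative member at -0.56 ± 0.35 (SE), and without iPCKO 1 it stood at -0.09.

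Mki67, which encodes the proliferation marker Ki-67 that coats mitotic chromosomes, had an RPKM of 35.1, 33.6 and 31.1 in controls and 20.4, 42.7 and 44.3 in iPCKO samples. One iPCKO sample lay below all controls and the other two above them. The log2 fold change of Mki67 was 0.03 ± 0.26 (SE) with a 95% interval from -0.57 to 0.62, and it was 0.39 without iPCKO 1. Top2a, the topoisomerase that untangles sister chromosomes, had an RPKM of 19.2, 28.6 and 24.3 in controls and 16.7, 30.1 and 32.8 in iPCKO samples, with a log2 fold change of 0.1 ± 0.25 (SE). Foxm1, a transcription factor of G2 genes, had 6.4, 6.57 and 5.19 RPKM in controls and 4.29, 6.68 and 7.8 in iPCKO samples, with a log2 fold change of 0.01 ± 0.21 (SE). Mybl2, which encodes B-MYB and is itself switched on at G1/S, moved apart from the other mitosis members. It had 2.54 ± 0.49 RPKM in controls and 3.8 ± 0.62 in iPCKO samples (SD, n = 3), without overlap, and a log2 fold change of 0.57 ± 0.17 (SE) with an adjusted p of 0.057. With 3 samples against 3, the exact two-sided permutation test cannot go below p = 0.1, the value it gave for each of the 18 members whose groups did not overlap.

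**Figure D4:**
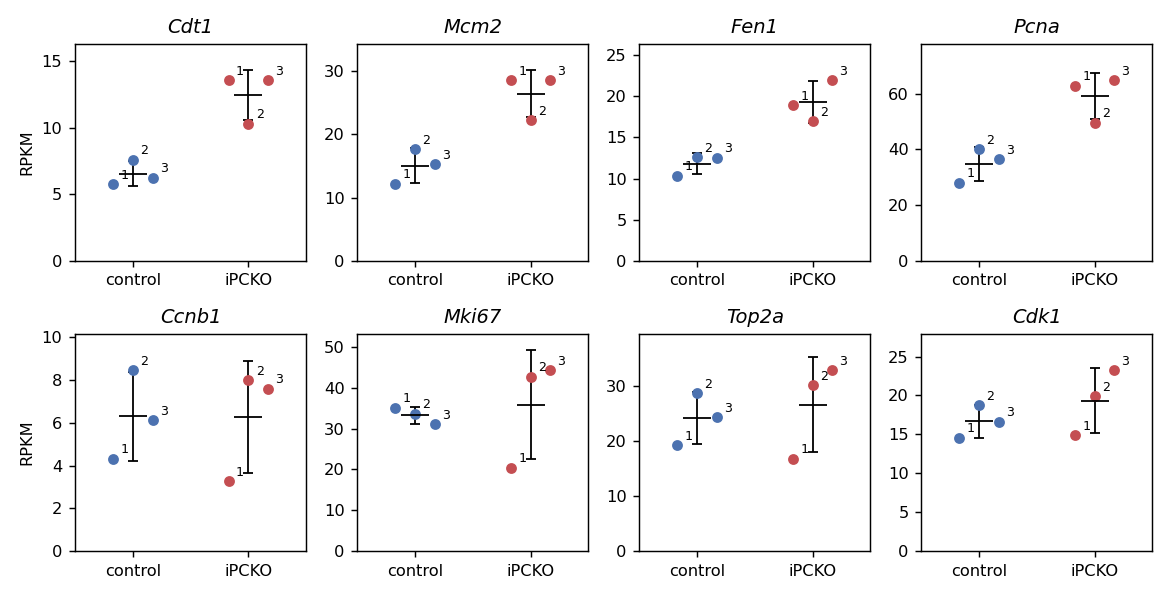
RPKM (y axes, from 0) of 4 replication genes (top) and 4 mitosis genes (bottom) in control and iPCKO samples, with a point a sample marked by its replicate number, and the mean and SD as a horizontal line and bar. In the top row the iPCKO points lie above the controls, and in the bottom row iPCKO 1 lies below the other iPCKO samples.

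Other genes of both processes, listed from textbook roles, were placed beside the members. Of 45 further replication genes, 44 passed the filter, and their median log2 fold change was 0.29 with 39 of 44 positive. Of these, 3 were called higher and 0 lower, against 4.11% and 2.68% of all tested genes. Without overlap between the groups, 22 genes were higher and 3 lower in iPCKO samples, against 18.3% and 17.1% of all tested genes. Rfc1, the large subunit of the clamp loader, rose by 0.75 ± 0.08 (SE), from 13.4, 12.6 and 13.4 RPKM in controls to 21.6, 21.9 and 22.9 RPKM in iPCKO samples, with an adjusted p of 0.00052 in limma. Gmnn, which encodes the CDT1 inhibitor geminin, rose by 0.7 ± 0.11 (SE) with an adjusted p of 0.0043. Chaf1b, a subunit of the factor that assembles nucleosomes on copied DNA, rose by 0.66 ± 0.12 (SE) with an adjusted p of 0.007. Of the 3 calls, 1 was left without control 1, without control 3 or without iPCKO 3, and 0 with Y-linked transcripts as a covariate. Of 65 further mitosis genes, 0 were called by limma, with 3 at an unadjusted p below 0.05 against 29.7% of all tested genes in either direction, and the median was 0.03 with 35 of 65 positive. iPCKO 1 was the lowest of the 6 samples for 47 of these 65 genes (72.3%).

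The 18 regulators of E2F, RB and DREAM complexes had a median log2 fold change of 0.04, and limma called 0 of them, with 2 at an unadjusted p below 0.05, against the same 29.7%. E2f1, an activator of S phase genes and itself an E2F target, had 2.78, 2.69 and 2.05 RPKM in controls and 3.89, 2.86 and 3.98 in iPCKO samples. The groups did not overlap by a narrow margin, and the log2 fold change was 0.49 ± 0.17 (SE) with an adjusted p of 0.09. E2f5, which acts with the RB relatives p107 and p130, was at -0.31 ± 0.12 (SE) with an adjusted p of 0.12. Rb1 and Rbl2 were at 0.16 and -0.06, and the DREAM subunits Lin9, Lin37, Lin52 and Lin54 between -0.08 and 0.1.

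**Figure D5:**
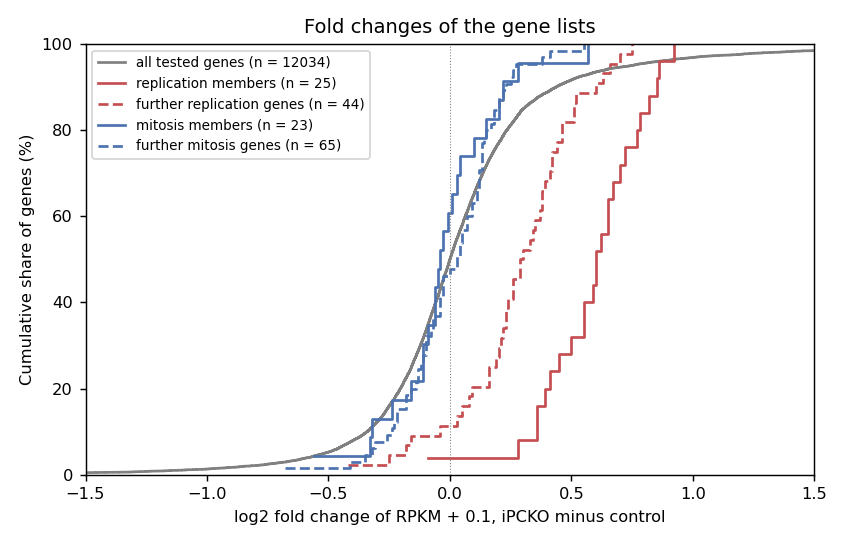
Cumulative share of genes (y axis, %) by log2 fold change of RPKM + 0.1, iPCKO minus control (x axis), for all 12034 tested genes, the members and the further genes of both processes. The replication members (median 0.6) and further replication genes (median 0.29) lie right of all genes (median 0), and both mitosis curves (medians -0.04 and 0.03) cross near 0.

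Among markers of other cells, those of leukocytes and neutrophils moved most with the groups. All 10 leukocyte markers were higher in iPCKO samples, 7 of them called, against 4.11% of all tested genes called higher. Their summed RPKM was 56.6 to 77.4 in controls and 142 to 241 in iPCKO samples. All 10 neutrophil markers were higher, 6 of them called, with summed RPKM of 87.1 to 129 in controls and 449, 1989 and 4949 in iPCKO 1, 2 and 3. The summed RPKM of the replication members was 423, 361 and 472 in the same samples, and iPCKO 3 was the highest for all 3 lists. The 6 genes listed as markers of neutrophil precursors were all below the filter. Their summed RPKM was 0.16 to 0.34 in controls and 1.3, 1.59 and 3.65 in iPCKO 1, 2 and 3. Whether dividing cells of that lineage were present was not tested. Cebpe was the highest of them, at 0.04, 0.14 and 0.19 RPKM in controls and 0.69, 0.73 and 1.93 RPKM in iPCKO samples. Prtn3 reached 0.57 RPKM, and Elane and Mpo at most 0.23 and 0.37 RPKM in any sample. Lymphocyte markers summed to 6.97 to 7.84 RPKM in controls and 3.99 to 6.81 in iPCKO samples. Pericyte markers moved both ways, as given above, with a median log2 fold change of -0.12. Of 10 endothelial markers 1 was called higher, Kdr at 0.77, with a median of -0.04. Of 10 epithelial markers 1 was called higher, Sftpb at 0.55, with a median of 0.33. These markers summed to 583 to 667 RPKM in controls and 843 to 898 RPKM in iPCKO samples. RNA of cells other than pericytes was thus present in both groups. Every iPCKO sample lay above every control for 6 of 10 epithelial markers, against 18.3% of all tested genes, and the opposite order held for 0. Of 10 fibroblast markers 0 were called. The part of these cells in the replication genes was not tested.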

How the data were processed

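RiboTag RNA of 3 control and 3 iPCKO lung samples at P8 was analysed. The labels do not say how many animals a sample held. Per the labels and methods, libraries of total RNA were stranded, and the authors aligned reads to mm10 with TopHat, counted genes with HTSeq 0.6.1 and tested counts with DESeq2. The authors deposited RPKM per Ensembl gene, 1 table a sample. The exon length used is not given in the sources used here, and dividing by it and by depth hides the reads behind a value. Symbols and coordinates came from GENCODE M21 and promoters from RefSeq.

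Genes that reached 1 RPKM in 3 or more of the 6 samples were fitted as log2(RPKM + 0.1) with limma 3.58.1 in R 4.3.3 (lmFit, eBayes with a trend, Benjamini-Hochberg over all genes), without scaling, at the study's thresholds. Scripts were tested on simulated data. Python 3.11.15 was used for promoters and figures. Full values are given for called members, the most abundant member of each role, Mki67, Top2a, Pcna, Ccnb1 and Cdk1, and of further lists for called genes and any E2F, RB or DREAM gene. Members just past a threshold, at the ends of a range or against the trend were named after their values had been seen. Members and lists were chosen with earlier results of these data known. Same-numbered samples did not deviate together (correlations of 0.24, 0.09 and 0.02), so replicates were not paired.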

Additional observations from a re-analysis of the deposited data

How the results depend on the processing

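The median over the replication members stayed between 0.39 and 0.72 and that over the mitosis members between -0.28 and 0.26 over 22 alternatives, and no member changed sign with both values beyond 1 SE of 0. Scaling by median ratios or quantiles moved the median of all tested genes by -0.003 and -0.032. The count of members called higher was less stable. It was 3, and became 2 with either scaling, 1 with no filter on low values, 15 with an adjusted p below 0.05, and 0 with an absolute log2 fold change above 1, with Y-linked transcripts as a covariate, or with trends on GC content and length removed. All genes called were 817, and became 1313 with an adjusted p below 0.05, 411 with a fold change above 1 and 119 with Y-linked transcripts as a covariate. With a sample left out, members called ranged from 0 to 3 and all genes called from 382 (without control 3) to 899, with 414 without iPCKO 2 and 499 without iPCKO 3. These fits kept the 12034 genes, a choice made after counts with the filter applied again to the 5 samples had been seen. Applied again, the filter gave 363 without control 3, 373 without iPCKO 2, 455 without iPCKO 3, 544 without control 2 and up to 804, with members called again 0 (without control 1, control 3 or iPCKO 3), 1 (without iPCKO 1 or iPCKO 2) or 3. With the replicate block, 922 genes (579 higher, 343 lower) and 2 members were called, Mcm2 being lost at an adjusted p of 0.012. Of 1103 single values of members, 42 lost the call (Mcm2, Cdt1 or Fen1) and 14 gained it. The covariates, trends and repeated filter were chosen after seeing the data. The cause of these shifts was not tested. RPKM carry no read counts, so counting error could not be separated from the spread between samples.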

Other observations

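Histone genes, whose products include those that package newly copied DNA, were looked at after the other lists had been seen. They were taken by name, so not every gene in the list need follow replication. Of 53 genes named Hist1h to Hist4h past the filter, 51 had a positive log2 fold change, with a median of 0.36. Of these genes 1 was called higher, Hist1h4a, against 4.11% of all tested genes. Its RPKM was 70.9, 66.7 and 50.5 in controls and 109.9, 98.7 and 112.3 in iPCKO samples (adjusted p = 0.0061 in limma). The groups did not overlap for 32 genes, all higher in iPCKO samples, against 18.3% of all tested genes higher and 17.1% lower. The summed RPKM of the 53 genes was 6268, 6164 and 5470 in controls and 7839, 7742 and 7839 in iPCKO samples, so that iPCKO 1 did not stand apart here as it did for the mitosis genes. Many of these genes are near-identical copies whose reads cannot be assigned with certainty, so single values and counts of genes are uncertain.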
